A study of Mus musculus with 12 samples.

Results

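The interaction between loss of Clrn1 and loss of Clrn2 was measured in RNA from mouse organs of Corti at postnatal day 21, using all 12 of the 12 libraries of the series. The libraries form a 2 by 2 factorial with 3 libraries in each of 4 genotypes: wild-type, Clrn1-/-, Clrn2-/- and Clrn1-/-Clrn2-/-. All were assigned by their genotype label, and every gene that passed a filter on low counts was tested. Clrn1-/- mice lack exon 4 of Clrn1 in every tissue after deletion with PGK-cre. Clrn2-/- mice carry the clarinet nonsense allele, also in every tissue, and the double mutants came from crossing these lines. The stria vascularis and the modiolus were removed at dissection. Wild-type mice came from separate breedings and were not littermates, so genotype and breeding cannot be told apart. The interaction is the log2 difference double - Clrn1 - Clrn2 + wild-type. It is positive where the double mutant lay above the level reached if the fold changes of the single mutants multiplied, and negative where it lay below.

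Clarin-1 and clarin-2 are related tetraspan membrane proteins of the inner and outer hair cells. Clarin-1 is the product of the Usher syndrome type 3A gene, and both clarins take part in building and keeping the hair bundle, the array of stereocilia that holds the mechanoelectrical transduction (MET) machinery. In a factorial design, each clarin can be removed with the other present or absent, and the interaction is the difference between these effects. A difference from wild-type that all 3 mutant genotypes share equally appears as an interaction of the same size and the opposite sign, by arithmetic.

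Between 30008679 and 41049302 reads per library were counted on genes, and 13.5 to 15.8% of reads were counted on none. Of 55348 genes, 19052 passed the filter on low counts and were tested. Levels are given in CPM, the count scaled to the TMM-adjusted depth of its library. Calls required a difference of 1.5-fold or more together with an edgeR quasi-likelihood p that was 0.05 or lower after Benjamini-Hochberg adjustment. Since nothing states that the 3 libraries of a genotype came from separate pools of mice, p-values measure the spread between these libraries. In bulk tissue, a change in the share of a cell type and a change in RNA per cell cannot be told apart.

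The targeted genes were read first. Clrn1 (chr3:58844028-58885340, minus strand, GRCm38) stood at 25, 23.8 and 28.6 CPM in wild-type, at 3.04, 2.69 and 2.75 CPM in Clrn1-/-, at 31.5, 25.8 and 29.1 CPM in Clrn2-/- and at 1.77, 2.44 and 2.71 CPM in the double mutant. Every library matched its label at Clrn1, and no interaction was called (log2 -0.43, SE 0.18, edgeR adjusted p = 0.118). Clrn2 (chr5:45453751-45464149, plus strand) stood at 3.03, 1.89 and 3.24 CPM in wild-type, 0.854, 0.854 and 1.04 CPM in Clrn1-/-, 1.26, 1.38 and 1.04 CPM in Clrn2-/- and 1.18, 0.921 and 1.13 CPM in the double mutant. Wild-type libraries lay above all 9 mutant libraries, and the level in Clrn1-/-, where Clrn2 is intact, was no higher than in Clrn2-/-. The fall was therefore not deeper when both genes were lost, and the interaction was called positive (log2 1.38, SE 0.32, edgeR adjusted p = 0.00752).

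Across all genes, 1048 interactions were called (5.5% of the genes tested). In 683 the double mutant lay above the product of the single-mutant folds (3.58%), and in 365 below it (1.92%). The median interaction over all genes tested was 0.01 on the log2 scale, with quartiles of -0.17 and 0.21. At high level the same imbalance held: of 11329 genes that averaged 10 CPM or more in some genotype, 277 were called positive and 152 negative.

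The effect of losing 1 clarin was compared between backgrounds that share no library. Loss of Clrn1 with clarin-2 present (Clrn1-/- against wild-type) gave 1375 calls (7.22%), and with clarin-2 absent (double against Clrn2-/-) 972 calls (5.1%). Of the 670 genes raised by Clrn1 loss with clarin-2 present, 190 (28.4%) were also raised with clarin-2 absent, where 3.67% of all genes were raised. Of the 705 lowered genes, 119 (16.9%) were lowered again, against 1.43% of all genes. Of these raised and lowered genes, 13 and 39 were called in the opposite direction. The same genes moved less on the second background, with a median log2 change of 1.05 falling to 0.37 for the raised genes and of -1.06 against -0.18 for the lowered ones. Since the first comparison chose these genes, the effect of that choice and a weaker response cannot be told apart in this drop. Over all 19052 genes Pearson's r between the effects was 0.35, given as a description since genes are not independent.

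Loss of Clrn2 was compared in the same way. With clarin-1 present (Clrn2-/- against wild-type) 507 genes were called (2.66%), and with clarin-1 absent (double against Clrn1-/-) 1378 (7.23%). Of 236 genes raised by Clrn2 loss with clarin-1 present, 80 (33.9%) were raised again with clarin-1 absent, where 4.62% of all genes were raised. Of 271 lowered genes, 48 (17.7%) were lowered again against 2.61% of all. Of these raised and lowered genes, 11 and 38 were called in the opposite direction. Pearson's r over genes was 0.15.

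**Figure D1:**
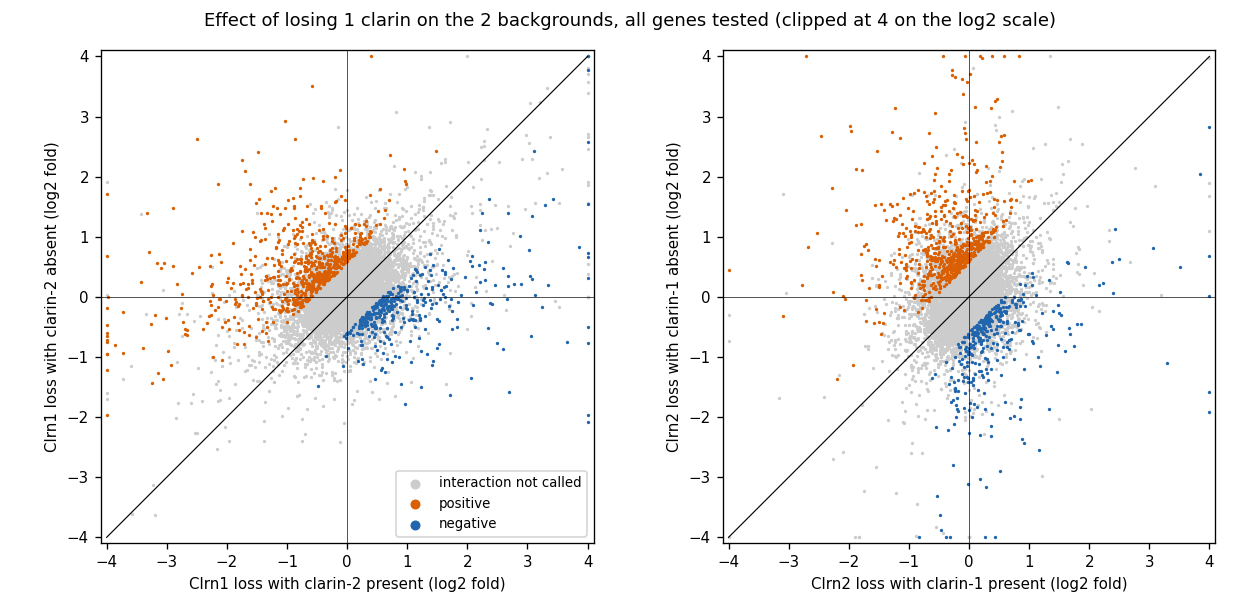
Each point is a gene. The log2 fold change on loss of 1 clarin with the other clarin present (x axis) is plotted against the same with the other clarin absent (y axis), for Clrn1 on the left and Clrn2 on the right, and the 683 positive and 365 negative interactions lie above and below the diagonal of equal effects. Values beyond 4 are drawn at the edge.

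The called interactions were sorted by which mutants were called against wild-type. The largest class, 440 genes, was changed in a single mutant and not in the double mutant, and in 348 of these the single mutant was Clrn1-/- alone. In 142 genes the double mutant and a single mutant moved the same way, but the double mutant by less than the product of folds. In 113 genes only the double mutant was called, 99 raised and 14 lowered. Another 12 genes, all raised, moved in the same direction in a single mutant and further than the product in the double. In 18 the double mutant was called against the direction of the single mutants, and in 323 no mutant was called against wild-type. Of the 1048 genes, 356 had no call in any comparison among the mutants. Most genes called in the double mutant alone had no called interaction: of 1150 genes called in the double and in neither single mutant, 113 had one. A missing call is not evidence that an interaction is absent, and without the fold minimum 763 genes were double-only.

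**Figure D2:**
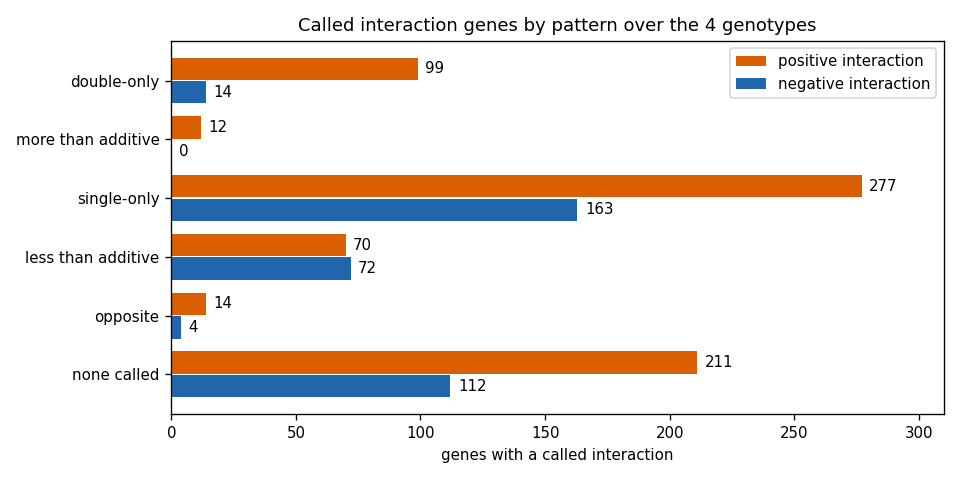
Bars give the number of called interaction genes, positive in orange and negative in blue, in each pattern over the 4 genotypes. The double-only class held 99 positive and 14 negative genes, and the more-than-additive class 12 and 0.

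Some keratin, desmosome and tight junction genes rose in the double mutant beyond the product of the single-mutant folds. Of 11 keratins tested, 3 were called positive (27.3%, against 3.58% of all genes) and 0 negative, with a median of -0.01, and 4 were called higher in the double mutant than in wild-type. The called keratins were Krt8, Krt18 and Krt23, and Krt23 (1.12, SE 0.26) was not called against wild-type in any mutant. Krt8 and Krt18, which encode the partner keratins of simple epithelia, are neighbouring genes on chromosome 15 whose Gencode starts lie 23698 bases apart. Krt8 stood at 8.09, 7.18 and 6.98 CPM in wild-type, 14.6, 14.2 and 14.8 CPM in Clrn1-/-, 15.2, 14.2 and 16.1 CPM in Clrn2-/- and 54.8, 56.1 and 56.2 CPM in the double mutant. Each loss alone raised Krt8 and the groups of single mutants overlapped, while all double mutant libraries lay far above them. Multiplied folds would give 29.8 CPM and summed differences 22.3 CPM, against a measured mean of 55.7 CPM. The interaction was 0.90 on the log2 scale (SE 0.09, edgeR adjusted p = 1.19e-05). Krt18 followed the same order, from 7.84 to 9.26 CPM in wild-type, 12.7 to 14.6 CPM in the 6 single-mutant libraries and 36.8 to 38.4 CPM in the double mutant (interaction 0.81, SE 0.10, edgeR adjusted p = 5.34e-05).

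The promoters of this pair are shown because both genes moved together in all 4 genotypes. Each runs from 250 bases before to 50 after the RefSeq start (GRCm38.p6), chr15:102004293-102004592 on the minus strand for Krt8 and chr15:102027966-102028265 on the plus strand for Krt18. Capitals mark matches, on either strand, to the searched letters of an E-box (CACGTG), an ISRE (GAAANNGAA), a CRE (TGACGTCA), a C/EBP-ATF site (TGATGNAA), an AP-1 site (TGANTCA) or a TATA box (TATAAA).
Krt8: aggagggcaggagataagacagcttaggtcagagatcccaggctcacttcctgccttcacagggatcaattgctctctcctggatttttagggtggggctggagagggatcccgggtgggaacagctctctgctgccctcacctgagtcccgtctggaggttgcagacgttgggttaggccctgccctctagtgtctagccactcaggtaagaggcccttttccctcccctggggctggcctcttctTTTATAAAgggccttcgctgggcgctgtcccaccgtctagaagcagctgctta
Krt18: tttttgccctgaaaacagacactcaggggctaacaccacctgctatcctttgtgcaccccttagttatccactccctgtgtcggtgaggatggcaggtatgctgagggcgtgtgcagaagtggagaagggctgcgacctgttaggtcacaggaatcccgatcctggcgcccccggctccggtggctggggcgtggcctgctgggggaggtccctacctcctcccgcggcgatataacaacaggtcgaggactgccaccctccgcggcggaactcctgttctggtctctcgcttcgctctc
The only letters found were overlapping TATA box matches in Krt8, and Krt18 held none of the 6 motifs. The Krt8 matches began at -3 and -1 from the RefSeq start, which differs from the Gencode start used for the distance above. Among the promoters of all tested genes with a sequence, 12957 in number, 9.47% held a TATA box and 6.65% an AP-1 match. Of 382 promoters of positive interaction genes these shares were 13.9% and 11.8%, and of 206 of negative ones 15% and 9.71%. The E-box was in 10.9% of all, 6.28% of positive and 9.22% of negative promoters, and the ISRE in 8.64%, 8.9% and 6.8%. The CRE was in 3.28%, 2.36% and 0.485%, and the C/EBP-ATF site in 2.82%, 3.14% and 5.83%. In 74 promoters of raised double-only and more-than-additive genes, the class of Krt8 and Krt18, the TATA box share was 9.46% and the AP-1 share 12.2%. A match is a description of letters only.

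Epithelial junction genes were examined next. Dsp, the desmosomal plaque protein desmoplakin, was at 15.9, 14.7 and 15.5 CPM in wild-type, 17.2, 13.6 and 14.5 CPM in Clrn1-/-, 17.7, 14.8 and 14.4 CPM in Clrn2-/- and 32.4, 32.6 and 33.1 CPM in the double mutant. Neither single mutant was called at Dsp, and the double mutant lay above every other library (interaction 1.09, SE 0.12, edgeR adjusted p = 3.06e-05). Cldn6, a tight junction claudin, rose from 0.607 to 1.18 CPM in wild-type to 4.0 to 5.08 CPM in the double mutant, with 1.27 to 1.66 CPM in Clrn1-/-, called higher than wild-type, and 0.815 to 0.979 CPM in Clrn2-/- (interaction 1.65, SE 0.30). Its neighbour Cldn9, a claudin needed for hearing, stood at 66.4 to 85.1 CPM in wild-type, 85.2 to 108.6 CPM in the single mutants and 187.8 to 200.8 CPM in the double mutant (interaction 0.69, SE 0.12). Without wild-type replicate 3 the Cldn9 interaction was 0.57, below the fold minimum.

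Of 45 epithelial junction genes tested, 9 were called positive (20%, against 3.58% of all genes) and 1 negative (2.22%, against 1.92%), with a median interaction of 0.31. This list was chosen with earlier results of these data known. Against wild-type, 1120 of all genes were raised in the double mutant (5.88%) and 766 lowered (4.02%), and of the 45 these were 20 and 0. The 9 positive calls became 5 without wild-type replicate 1, wild-type replicate 3, Clrn2-/- replicate 2 or double mutant replicate 3. Ppl, Cldn3 and Pof1b were chosen after their values were seen. Ppl, the cornified envelope protein periplakin, had double mutant values of 32.7 to 34.1 CPM against 16.3 to 21.4 CPM in the other 9 libraries (interaction 0.79, SE 0.10). Cldn3 reached 37.6 to 40.8 CPM in the double mutant against 15.6 to 25.2 CPM in the other 9 libraries, but its interaction of 0.68 fell to 0.56 without wild-type replicate 3 and to 0.54 without Clrn2-/- replicate 2. Pof1b, an actin-binding epithelial protein, reached 14.1 to 17.8 CPM against 4.1 to 8.26 CPM elsewhere (interaction 0.65, SE 0.18). Its call was lost without wild-type replicate 3 (0.57), Clrn2-/- replicate 1 (0.52), double mutant replicate 2 (0.57) or double mutant replicate 3 (0.61, edgeR adjusted p = 0.0512). Grhl2, the grainyhead-like transcription factor of epithelia and a deafness gene, was at 19.7 to 21.7 CPM against 9.04 to 13.3 CPM elsewhere (interaction 0.61, SE 0.12). Its call was lost, at 0.52 to 0.55, without wild-type replicate 3, Clrn1-/- replicate 2, Clrn2-/- replicate 2 or double mutant replicate 2, with scaling by library size alone (0.57), and with unstranded counts (0.58).

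Of 30 supporting cell markers 3 were called positive (10%, against 3.58% of all genes) and 1 negative (3.33%, against 1.92%), with a median of 0.04. Of 23 hair cell markers 1 was called positive (4.35%) and 2 negative (8.7%), with a median of -0.02. The 3 genes described next belong to neither list. Ceacam16, a glycoprotein of the tectorial membrane, stood at 1303, 1267 and 1475 CPM in wild-type, 1638, 1672 and 1931 CPM in Clrn1-/-, 2104, 1685 and 2163 CPM in Clrn2-/- and 3718, 4148 and 4020 CPM in the double mutant. The double mutant mean of 3962 CPM compares with 2571 CPM if folds multiplied and 2383 CPM if differences added (interaction 0.62, SE 0.13, edgeR adjusted p = 0.00391). This value lies just above the fold minimum and fell below it, at 0.51 to 0.58, without wild-type replicate 3, Clrn1-/- replicate 1 or 2, Clrn2-/- replicate 2 or double mutant replicate 2. P2rx2, an ATP-gated channel of the cochlea whose variants cause deafness, rose from 81.9 to 105.5 CPM in wild-type to 256.8 to 282.4 CPM in the double mutant, with 107.3 to 137.1 CPM in the single mutants (interaction 0.72, SE 0.13). Tmprss3, a transmembrane serine protease required for hearing and named here after its values were seen, rose from 67.3 to 82.9 CPM to 208.2 to 225.6 CPM, with 92.0 to 108.9 CPM in the single mutants (interaction 0.68, SE 0.10).

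Of 79 potassium channel genes 2 were called positive (2.53%, against 3.58% of all genes) and 4 negative (5.06%, against 1.92%). Of 29 sodium-potassium ATPase and cotransporter genes 1 was called positive (3.45%) and 0 negative. Kcnj16, an inward rectifier potassium channel, reached 468.2 to 534.6 CPM in the double mutant from 133.4 to 172.6 CPM in wild-type (interaction 0.71, SE 0.12). Hsd17b6, a steroid and retinol dehydrogenase, stood at 6.63 to 10.8 CPM in wild-type, 13.4 to 17.3 CPM in the single mutants and 58.2 to 70.3 CPM in the double mutant (interaction 1.19, SE 0.17, edgeR adjusted p = 0.000251). Fxyd2, a regulatory subunit of the sodium-potassium ATPase, was higher in Clrn2-/- (16.8 to 20.5 CPM) than in wild-type (9.04 to 12.9 CPM) and reached 21.9 to 23.4 CPM in the double mutant, with 6.61 to 7.92 CPM in Clrn1-/- (interaction 0.84, SE 0.16). The double mutant was not called above Clrn2-/- at Fxyd2. Ajap1, a junction protein that associates with adherens junctions, had 8.36 to 10.9 CPM in the double mutant and 2.30 to 4.55 CPM in the other 9 libraries (interaction 1.94, SE 0.24).

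A list of 41 apical epithelial genes, drawn up after the values were seen and so a description only, summed to 1073 to 1196 CPM in wild-type, 1335 to 1550 CPM in the 6 single-mutant libraries and 2700 to 2824 CPM in the double mutant. Of its members 17 were called positive and 0 negative, and the 17 became 10 without wild-type replicate 3 and 11 without Clrn2-/- replicate 2. Over the same libraries the summed level of 30 supporting cell markers was 5690 to 6184 CPM in wild-type and 6895 to 7257 CPM in the double mutant. The 23 hair cell markers summed to 4217 to 4730 CPM and 3009 to 3250 CPM, and the 26 neuron markers to 15690 to 17250 CPM and 11340 to 11580 CPM. The part of these shifts in the epithelial values was not tested.

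**Figure D3:**
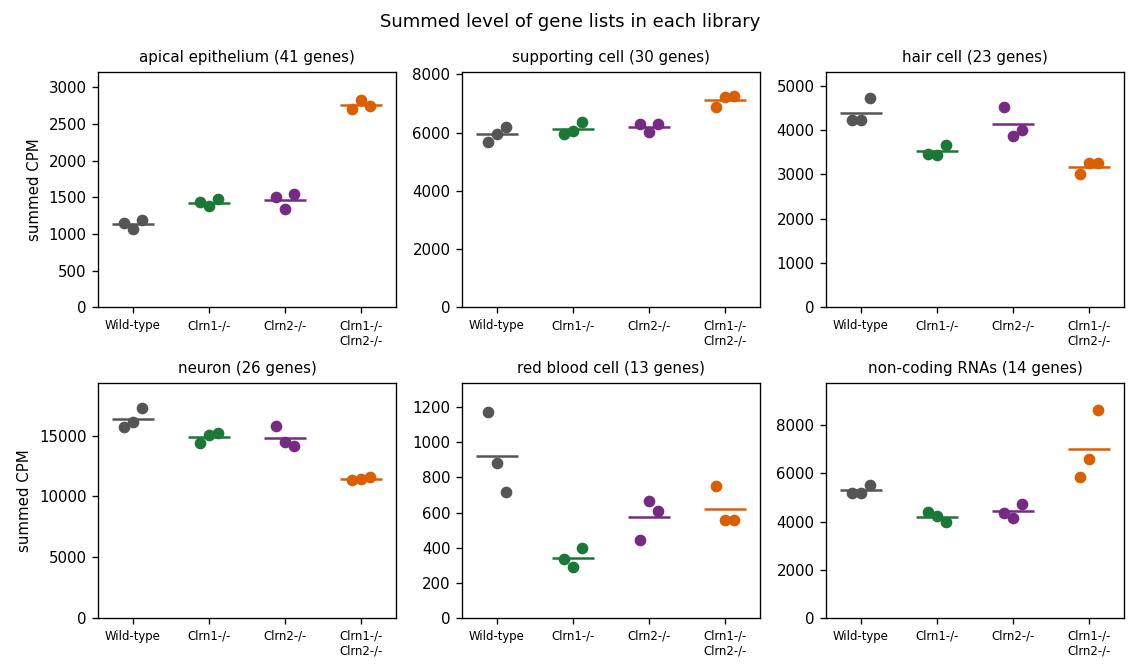
Points are libraries and lines are means of the summed CPM of each gene list, by genotype, on axes that start at 0. The apical epithelial sum sits at 2700 to 2824 CPM in the double mutant and at or below 1550 CPM elsewhere, while the red blood cell and non-coding RNA sums are lower in both single mutants than in wild-type.

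Of 454 genes called lower in the double mutant and in neither single mutant, 14 had a called negative interaction. Sv2c, a synaptic vesicle glycoprotein, stood at 213.1, 218.3 and 241.9 CPM in wild-type, 278.3, 264.4 and 253.1 CPM in Clrn1-/-, 196.7, 178.5 and 171.7 CPM in Clrn2-/- and 102.1, 99.8 and 112.8 CPM in the double mutant. The double mutant libraries lay below all others (interaction -1.04, SE 0.09, edgeR adjusted p = 2.75e-06). Epha10, an Eph family receptor, had 5.29 to 5.87 CPM in the double mutant and 7.29 to 11.7 CPM elsewhere (interaction -1.02, SE 0.16).

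The opposite shape, a rise in each single mutant that did not grow in the double, was seen in Tectb. This gene (chr19:55180733-55196313, plus strand) encodes beta-tectorin, a structural protein of the tectorial membrane. It stood at 24.4, 27.5 and 29.0 CPM in wild-type, 49.9, 54.7 and 71.9 CPM in Clrn1-/-, 69.0, 65.5 and 78.4 CPM in Clrn2-/- and 43.9, 52.8 and 53.6 CPM in the double mutant. All mutant libraries exceeded wild-type, and the double mutant overlapped Clrn1-/- and lay below Clrn2-/-. Its mean was 50.1 CPM, against 154.6 CPM if folds multiplied and 102.8 CPM if differences added. The interaction was -1.63 (SE 0.16, edgeR adjusted p = 1.08e-05). Tectb and Ceacam16, both tectorial membrane genes, thus had called interactions of opposite sign, and the other 13 tectorial membrane genes tested had no call.

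Further genes raised by each loss and no further by both spanned several functions. Kcnip2, a potassium channel-interacting protein, rose from 34.5 to 42.5 CPM in wild-type to 59.9 to 65.5 CPM in Clrn1-/-, 77.9 to 83.9 CPM in Clrn2-/- and 62.5 to 65.7 CPM in the double mutant (interaction -1.08, SE 0.10). Gldn, which encodes gliomedin, a protein that clusters sodium channels at nodes of Ranvier, was at 141.8 to 169.1 CPM in wild-type and 241.3 to 292.7 CPM in all 9 mutant libraries (interaction -0.80, SE 0.09). Crym, the thyroid hormone-binding crystallin mu, rose to 15.9 to 16.5 CPM in Clrn1-/- and 11.3 to 12.5 CPM in the double mutant, from 5.59 to 6.63 CPM (interaction -1.28, SE 0.12). Rasd2, a small GTPase, and Bbc3, which encodes the pro-apoptotic protein PUMA, had interactions of -1.26 (SE 0.19) and -0.85 (SE 0.18). In Gldn, Kcnip2 and Bbc3 no comparison among the mutants was called.

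In the integrated stress response list, 2 of 39 genes were called positive (5.13%, against 3.58% of all genes) and 3 negative (7.69%, against 1.92%). The median interaction was -0.24. Chac1, a glutathione-degrading enzyme induced by ATF4, stood at 2.75 to 3.85 CPM in wild-type, 4.40 to 5.01 CPM in Clrn1-/-, 9.47 to 12 CPM in Clrn2-/- and 6.08 to 8.59 CPM in the double mutant (interaction -1.08, SE 0.21). Mthfd2, a mitochondrial folate enzyme, was called in Clrn2-/- alone, at 44.0 to 51.7 CPM against 24.6 to 25.7 CPM in wild-type and 31.3 to 35.8 CPM in the double mutant (interaction -0.98, SE 0.09). The double mutant was called below Clrn2-/- for Chac1 and not for Mthfd2.

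For 3 of the named genes with low wild-type levels, Ryr1, Fgf8 and Lmod3, the call depended on the scale. Ryr1, the ryanodine receptor calcium release channel of skeletal muscle, stood at 0.309, 0.521 and 0.405 CPM in wild-type, 5.82, 5.41 and 6.83 CPM in Clrn1-/-, 4.30, 4.04 and 5.90 CPM in Clrn2-/- and 7.77, 8.62 and 9.02 CPM in the double mutant. Multiplied folds would give 69.5 CPM, far above the measured mean of 8.47 CPM (interaction -3.02, SE 0.26, edgeR adjusted p = 3e-06). Summed differences would give 10.4 CPM, and the test on that scale made no call (limma adjusted p = 0.0846). Fgf8, the growth factor made by inner hair cells, was at 0.0281, 0 and 0.0759 CPM in wild-type, 0.569 to 1.25 CPM in Clrn1-/-, 0.765 to 1.15 CPM in Clrn2-/- and 1.44 to 1.57 CPM in the double mutant. Its wild-type level rests on 4 reads in all, so its fitted interaction depends on the prior count, and summed differences would give 1.87 CPM against a mean of 1.52 CPM. Lmod3, which encodes the actin nucleator leiomodin-3, behaved likewise, with means of 1.70, 5.41, 5.27 and 8.04 CPM in the order wild-type, Clrn1-/-, Clrn2-/- and double, and 8.98 CPM if differences added. Neither Fgf8 nor Lmod3 was called on the additive scale (limma adjusted p = 0.331 and 0.542).

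**Figure D4:**
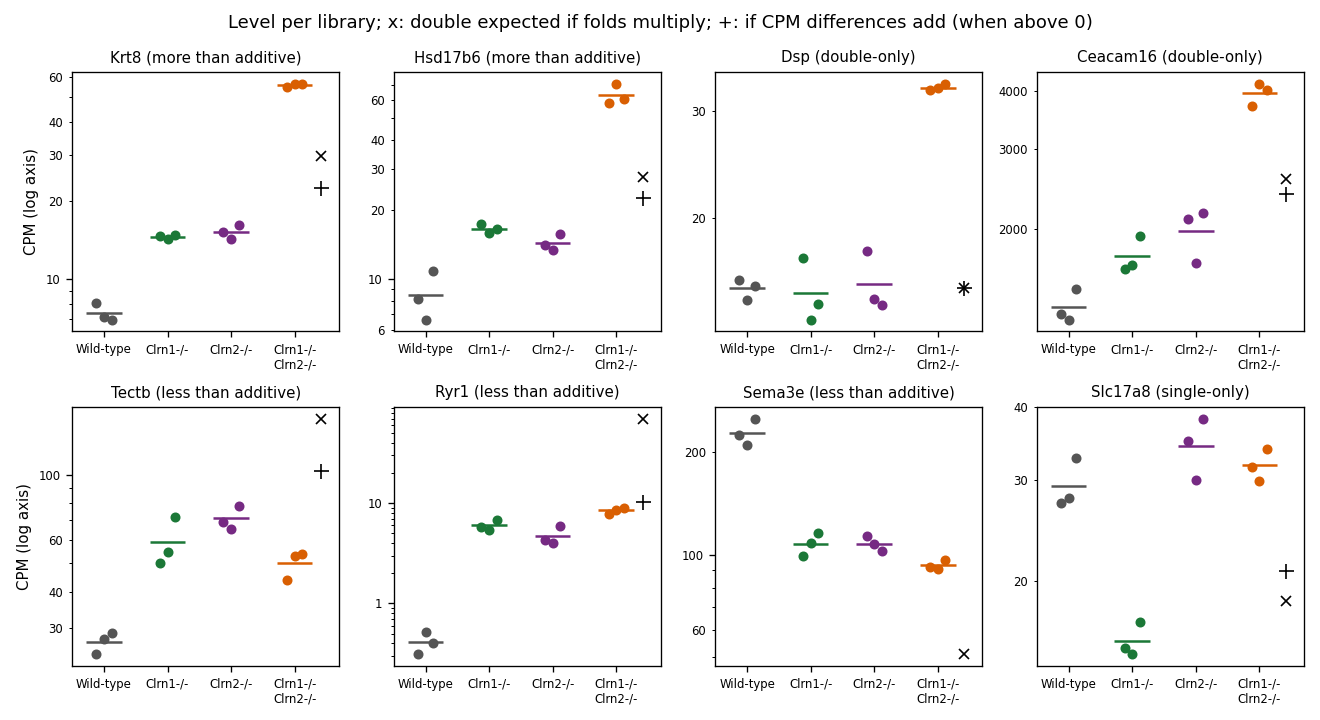
Points are the CPM of each library on log axes and lines are means. Crosses mark the level of the double mutant if folds multiplied and plus signs the level if CPM differences added (left out where that is below 0, as for Sema3e), so Krt8, Hsd17b6, Dsp and Ceacam16 lie above both marks, Tectb lies below both, and Ryr1 lies near the plus sign.

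Genes lowered by each loss, and by less than the product of folds in the double mutant, had positive interactions. Sema3e, a secreted semaphorin that guides axons and vessels, stood at 224.6, 209.0 and 249.9 CPM in wild-type, 99.4, 108.0 and 116.0 CPM in Clrn1-/-, 113.4, 107.3 and 102.6 CPM in Clrn2-/- and 91.9, 90.6 and 96.6 CPM in the double mutant. Single mutants overlapped each other and all mutants lay below wild-type (interaction 0.87, SE 0.09, edgeR adjusted p = 1.8e-05). Ttn, the giant sarcomere protein titin, fell from 15.8 to 18.3 CPM to 6.70 to 6.99, 3.15 to 4.09 and 2.46 to 2.81 CPM in Clrn1-/-, Clrn2-/- and the double mutant (interaction 0.83, SE 0.15). Cox8b, a muscle-type cytochrome oxidase subunit, fell from 18.3 to 21.0 CPM to 4.81 to 8.04 CPM in the single mutants and 3.84 to 5.44 CPM in the double (interaction 1.15, SE 0.22). At Cox8b the double mutant was not called against either single mutant. Lrrc52, an auxiliary subunit of BK-type potassium channels found in inner hair cells, fell from 4.33 to 5.59 CPM to 0.311 to 0.857 CPM in Clrn1-/-, 1.59 to 2.07 CPM in Clrn2-/- and 0.713 to 0.928 CPM in the double mutant (interaction 1.79, SE 0.36). The double mutant was called below Clrn2-/- at Lrrc52 (log2 -1.14) and not below Clrn1-/-. Of 34 skeletal muscle markers 4 were called positive (11.8%, against 3.58% of all genes), Ttn and Cox8b among them. Another 3 were called negative (8.82%, against 1.92%), Ryr1 and Myl1 among them. The markers summed to 776 to 866.4 CPM in wild-type, 643.5 to 753.1 CPM in the single mutants and 538.9 to 561.6 CPM in the double mutant. The part of this fall in Ttn and Cox8b was not tested, and Ryr1 rose in the mutants while the sum fell.

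Among genes of hair cells and synapses, read in bulk tissue, several effects of Clrn1 loss were seen with clarin-2 present and not with clarin-2 absent. Slc17a8 encodes VGLUT3, the vesicular glutamate transporter of inner hair cells. It stood at 27.3, 27.9 and 32.7 CPM in wild-type, 15.3, 15.0 and 17.0 CPM in Clrn1-/-, 35.0, 29.9 and 38.2 CPM in Clrn2-/- and 31.6, 29.9 and 33.9 CPM in the double mutant. Clrn1 loss thus lowered Slc17a8 on the wild-type background (log2 -0.89), whereas double mutant and Clrn2-/- libraries overlapped (log2 -0.11). The interaction was 0.78 (SE 0.13, edgeR adjusted p = 0.000626). Cacna1d, the CaV1.3 calcium channel of the ribbon synapse, went the other way, at 55.4 to 58.0 CPM in wild-type, 91.3 to 101.9 CPM in Clrn1-/-, 75.4 to 82.4 CPM in Clrn2-/- and 72.7 to 76.7 CPM in the double mutant (interaction -0.85, SE 0.07). Sv2b, a synaptic vesicle protein, was at 204.0 to 210.4 CPM in Clrn1-/- and 100.8 to 133.1 CPM in the other 9 libraries (interaction -0.92, SE 0.07). Rims3, a regulator of vesicle release, and Nlgn3, a postsynaptic adhesion protein, had interactions of -0.69 (SE 0.08) and -1.18 (SE 0.13). In the synaptic vesicle list, 4 of 57 genes were called in each direction (7.02%, against 3.58% of all genes positive and 1.92% negative), with a median of -0.13.

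Among hair bundle genes, 1 of 5 ankle link genes was called positive (20%, against 3.58% of all genes) and 1 negative (20%, against 1.92%). Of 13 MET channel and tip link genes 1 was called positive (7.69%), and of 33 stereocilia actin core genes 2 were called positive (6.06%). Whrn, the ankle link scaffold whirlin, had means of 27.9, 21.1, 17.7 and 22.3 CPM in wild-type, Clrn1-/-, Clrn2-/- and double mutant, and its interaction was 0.73 (SE 0.13). Cdh23, the upper part of the tip link, had means of 34, 20.4, 26.2 and 23.7 CPM. Its interaction of 0.59 lay at the fold minimum and was below it with DESeq2, unstranded counts, every gene tested or protein-coding genes alone (each 0.58) and with scaling by library size alone (0.55). It was also below, at 0.49 to 0.57, without wild-type replicate 3, Clrn1-/- replicate 1, Clrn2-/- replicate 1 or 2, or double mutant replicate 2 or 3. Adgrv1, the very large ankle link receptor, had an interaction of -0.78 (SE 0.19) with no mutant called against wild-type. Eps8l2, an actin-capping protein of stereocilia, had means of 52.3, 37.7, 48.0 and 56.7 CPM (interaction 0.71, SE 0.09). Baiap2l2, a membrane-bending protein at stereocilia tips, had means of 3.78, 2.07, 2.34 and 2.69 CPM (interaction 1.06, SE 0.24). At Adgrv1 and Baiap2l2 the double mutant was not called against either single mutant.

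Of the 14 MET-related genes that the study followed, only Ceacam16 (positive) and Tectb (negative) were called. This is 7.14% in each direction, against 3.58% and 1.92% of all genes. Yet 13 of the 14 were raised in the double mutant and 1, Pdzd7, was lowered. This list was chosen by the study on these samples. Tmc1, a pore-forming subunit of the MET channel, rose from 11 to 13.4 CPM to 17.3 to 21.5 CPM in Clrn1-/-, 18.5 to 25.8 CPM in Clrn2-/- and 23.2 to 26.5 CPM in the double mutant, with an interaction of -0.47 (SE 0.16, edgeR adjusted p = 0.0547). Pcdh15, the lower part of the tip link, was at 21.3 to 24.3 CPM in the double mutant and 11.2 to 17.3 CPM elsewhere, with an interaction of 0.27 (SE 0.12, edgeR adjusted p = 0.144). Ush1c, the scaffold harmonin, had 0.29 (SE 0.12), and Otog, encoding otogelin, had -0.13 (SE 0.11). The estimates were -0.32 for Strc, -0.15 for Pdzd7, 0.11 for Ptprq, 0.15 for Espn and 0.29 for Espnl, all with an edgeR adjusted p above 0.05. Otogl (-0.42), Diaph1 (0.23) and Col11a1 (0.35) passed the adjusted p but lay below the fold minimum. The median over the 14 was 0.13. On the additive scale, tested without a fold minimum, 5 of the 14 were called positive, with Pcdh15, Ush1c, Diaph1 and Col11a1 added to Ceacam16.

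Some matrix, bone and trophic factor genes were also called for Clrn1 loss with clarin-2 present and not with it absent. Mmp2, a gelatinase, stood at 154.8 to 203.0 CPM in Clrn1-/-, 60.8 to 73.8 CPM in wild-type, 66.8 to 72.7 CPM in Clrn2-/- and 88.4 to 104.7 CPM in the double mutant (interaction -0.93, SE 0.13). Col6a3 and Col16a1, collagen chains, had interactions of -0.74 (SE 0.17) and -0.72 (SE 0.07), and Dmp1, an osteocyte matrix protein, -0.89 (SE 0.15). Of 35 collagens tested, 1 was called positive (2.86%, against 3.58% of all genes) and 4 negative (11.4%, against 1.92%). Gfra1, a receptor for GDNF, was at 34.2 to 42.4 CPM in Clrn1-/- and 62.3 to 77.5 CPM in all other libraries (interaction 0.76, SE 0.11).

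Another group was lowered in at least 1 single mutant and was not called against wild-type in the double. Coch, encoding cochlin, the abundant matrix protein of fibrocytes, stood at 5126, 4743 and 6277 CPM in wild-type, 3722, 3477 and 3401 CPM in Clrn1-/-, 3223, 3411 and 3704 CPM in Clrn2-/- and 4891, 5460 and 6091 CPM in the double mutant. Wild-type and double mutant overlapped and both lay above every single mutant (interaction 1.28, SE 0.14, edgeR adjusted p = 2.33e-05). Loss of either clarin lowered Coch when the other was present (log2 -0.61 and -0.64) and raised it when the other was absent (0.67 and 0.63). Otor, which encodes the secreted protein otoraplin, had means of 57.2, 47.1, 36.1 and 61.8 CPM (interaction 1.06, SE 0.18). Cebpb, an inflammatory response transcription factor, was at 25.5 to 27.2 CPM in wild-type, 14.0 to 24.2 CPM in the single mutants and 33.4 to 37.7 CPM in the double mutant (interaction 1.53, SE 0.16). The complement proteases C1ra and C1s1 had interactions of 1.35 (SE 0.18) and 1.46 (SE 0.14), and Klf2, a flow-responsive factor of endothelium, 1.24 (SE 0.13), and among the single mutants these 3 were called lower in Clrn1-/- alone. Of 17 complement and acute phase genes, 4 were called positive (23.5%, against 3.58% of all genes) and 0 negative. The 18 fibroblast markers, Coch and Otor among them, summed to 7875 to 8922 CPM in wild-type, 6058 to 7183 CPM in the single mutants and 8675 to 9727 CPM in the double mutant. Coch alone gave 4743 to 6277 CPM of the wild-type sum, so the sum in large part restates Coch. The median log2 change of the 18 against wild-type was 0.18 in Clrn1-/- and 0.03 in Clrn2-/-, so the median marker was not lower there. The part of a fibroblast shift in the group was not tested.

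Other genes carried an interaction with no mutant called against wild-type. Map2, the dendritic microtubule protein, stood at 550.7, 558.6 and 616.9 CPM in wild-type, 846.5, 839.0 and 820.9 CPM in Clrn1-/-, 655.4, 649.0 and 612.1 CPM in Clrn2-/- and 537.7, 549.6 and 561.6 CPM in the double mutant. Every Clrn1-/- library lay above all others, by less than the 1.5-fold minimum against wild-type (interaction -0.75, SE 0.07, edgeR adjusted p = 5.31e-06). Kcnip1 (-0.71), the glutamate receptors Grik3 (-0.79) and Grm7 (-0.63) and the sodium channel subunit Scn4b (-0.64) were also called negative. Scn4b fell to -0.58 without Clrn2-/- replicate 1. Of 54 glutamate receptor genes 2 were called negative (3.7%, against 1.92% of all genes) and 0 positive. Of 26 neuron markers, 0 were called positive and 1 negative (3.85%), and 7 of the 26 estimates lay above 0, with a median of -0.15. The neuron marker sum was 14120 to 15820 CPM in the single mutants and 11340 to 11580 CPM in the double mutant, against 15690 to 17250 CPM in wild-type, and its part in these negative interactions was not tested. Of the 112 negative genes with no mutant called, 100 had both single-mutant estimates above 0, and 62 of these had the double mutant below 0. A called interaction with no mutant called favours such signs, so these counts only describe the class.

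Gjb2 and Gjb6 encode connexins 26 and 30, the gap junction proteins of supporting cells. Gjb6 stood at 377.0, 366.3 and 360.1 CPM in wild-type, 303.7, 275.7 and 287.1 CPM in Clrn1-/-, 308.0, 300.1 and 312.5 CPM in Clrn2-/- and 377.5, 379.1 and 374.5 CPM in the double mutant. Both single mutants lay below both other genotypes without overlap (interaction 0.65, SE 0.06). Gjb2 had means of 431.1, 350.1, 382.8 and 543.9 CPM (interaction 0.81, SE 0.11). Nr1d1 and Dbp, output genes of the circadian clock, had interactions of 1.0 (SE 0.13) and 0.87 (SE 0.14). Their means were 109.0, 89.7, 83.5 and 136.9 CPM, and 156.8, 108.2, 121.7 and 153.4 CPM, in the same order. Of 21 clock genes 3 were called positive (14.3%, against 3.58% of all genes) and 0 negative, with a median of 0.25. The sources used here give no dissection times. Cp (ceruloplasmin) and Serpine2 (a serine protease inhibitor) had interactions of 0.80 (SE 0.08) and 0.75 (SE 0.07). Of the 211 positive genes with no mutant called, 163 had both single-mutant estimates below 0 and the double mutant above 0. The thresholds that define this class favour such signs, so the count is a description only.

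Leaving aside the lists drawn up after the interaction values were seen, red blood cell genes had the highest median interaction. The remaining lists were also chosen with earlier results of these data known. Near-identical globin copies can share reads. Hba-a2, an alpha-globin gene, stood at 43.2, 37.7 and 27.8 CPM in wild-type, 9.11, 6.31 and 9.35 CPM in Clrn1-/-, 10.1, 18.1 and 12.7 CPM in Clrn2-/- and 25.6, 18.6 and 22.8 CPM in the double mutant. Single mutants were low and the double mutant lay between them and wild-type (interaction 2.85, SE 0.28). Of 13 red blood cell genes, 6 were called positive (46.2%, against 3.58% of all genes) and 0 negative, with a median of 1.42. Hbb-bs and Alas2 had 1.49 (SE 0.25) and 1.86 (SE 0.24). Without wild-type replicate 3 the 6 calls became 10. Their sum was 715.4 to 1170 CPM in wild-type, 291.9 to 396.7 CPM in Clrn1-/-, 445.8 to 664.9 CPM in Clrn2-/- and 555.9 to 751.5 CPM in the double mutant.

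Of 14 transcripts listed as non-coding RNAs after their values were seen, the protein-coding Lars2 among them, 12 were called positive and 0 negative. Gm42418, an annotated long non-coding RNA, had means of 1685, 1366, 1360 and 3197 CPM, and 4396 CPM in double mutant replicate 3 (interaction 1.54, SE 0.26). Mir6236 (3.79, SE 0.28), annotated as a microRNA, Lars2 (1.99, SE 0.22), a mitochondrial leucyl-tRNA synthetase, and the nuclear RNA Malat1 (1.20, SE 0.13), named after its values were seen, were likewise lowest in the single mutants. The list summed to 5172 to 5495 CPM in wild-type, 3969 to 4743 CPM in the single mutants and 5830 to 8606 CPM in the double mutant. These sums move in the direction of the positive interactions of Coch, Gjb6 and the clock genes, and their part in those results was not tested.

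Near-identical gene copies gave some of the largest interactions, and are uncertain because reads can be split between copies. Rps3a1, a ribosomal protein gene, stood at 175.9, 178.6 and 192.3 CPM in wild-type, 45.1, 38 and 40.7 CPM in Clrn1-/-, 205.8, 199.2 and 194.0 CPM in Clrn2-/- and 170.2, 170.9 and 192.1 CPM in the double mutant. Its processed pseudogene Rps3a3 showed the reverse, at 76.6 to 83.8 CPM in Clrn1-/-, 14.2 to 19.9 CPM in the double mutant and 0.646 to 1.21 CPM in the others. Rps3a1, Rps3a2 and Rps3a3 together summed to 184.4 to 202.4 CPM in wild-type, 136.3 to 148 CPM in Clrn1-/-, 206.7 to 219.5 CPM in Clrn2-/- and 199.6 to 216.7 CPM in the double mutant. The interaction of the sum was 0.37, against 1.98 for Rps3a1 alone. For Ndufs5, a subunit of complex I, the interaction was 0.69, and with Ndufs5-ps added it was -0.04. The Ndufs5 value fell to 0.54 without Clrn1-/- replicate 3.

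**Figure D5:**
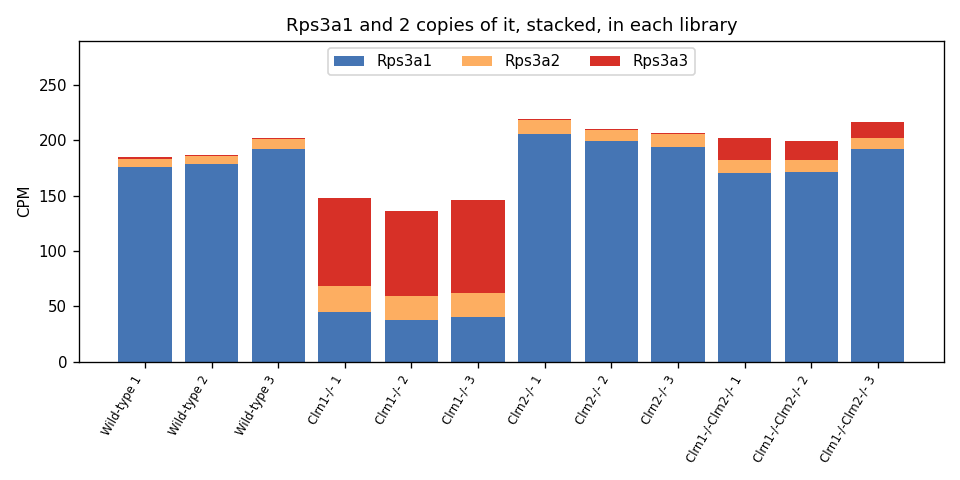
Stacked bars give the CPM of Rps3a1, Rps3a2 and Rps3a3 in each of the 12 libraries. In Clrn1-/- the Rps3a1 share shrinks to 38 to 45.1 CPM while Rps3a3 grows to 76.6 to 83.8 CPM, and the whole bar shortens less than Rps3a1.

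Summing copies did not remove every such interaction. With Eno1b added, Eno1, a glycolytic enolase, went from 0.86 to 0.76. Myl1, a fast muscle myosin light chain, stood at 36.7 to 42.7 CPM in Clrn1-/-, 8.68 to 10.9 CPM in wild-type, 6.21 to 7.72 CPM in Clrn2-/- and 2.40 to 3.08 CPM in the double mutant (interaction -3.41, SE 0.16), and with Mylf-ps added the value was -3.73. Rpl29, another ribosomal protein gene, had means of 110.6, 7.62, 118.4 and 68.0 CPM (interaction 3.06, SE 0.16). Of 848 processed pseudogenes tested 13.2% carried a called interaction, against 4.67% of 15163 protein-coding genes. Of 84 cytosolic ribosome genes 9 were called positive (10.7%, against 3.58% of all genes) and 2 negative (2.38%, against 1.92%).

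Large interactions also arose where both single mutants stood apart. Gm15446, a predicted protein-coding gene, was at 0.0274 to 0.0759 CPM in wild-type, 10.2 to 15.4 CPM in the single mutants and 3.11 to 4.22 CPM in the double mutant, with 6 reads in wild-type in all. Gm15564, an antisense RNA of the non-coding list above (interaction 4.02, SE 0.35), and Gm9844 (4.01, SE 0.54) were low in both single mutants. Their means were 2.63, 0.783, 1.08 and 5.16 CPM, and 1.02, 0.222, 0.270 and 1.02 CPM.

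In other genes Clrn1-/- alone stood far from the other 3 genotypes, some in runs of neighbouring genes. Plbd1, a phospholipase B-like protein (chr6:136612070-136661928), was at 78.6, 95.5 and 108.6 CPM in Clrn1-/- and between 2.02 and 4.25 CPM in the other 9 libraries (interaction -5.08, SE 0.21). Gm13394, a processed pseudogene, was at 74.0 to 81.2 CPM in Clrn1-/- and at most 0.152 CPM elsewhere. Ccl27a, a chemokine, was at 0.828 to 1.27 CPM in Clrn1-/-, 17.5 to 19.7 CPM in wild-type and Clrn2-/-, and 10.9 to 12.5 CPM in the double mutant (interaction 3.60, SE 0.15). The double mutant was thus close to the genotypes with intact Clrn1 for Plbd1 and between them and Clrn1-/- for Ccl27a.

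The Ifi200 family of interferon-inducible DNA sensors had 4 of 11 members called positive (36.4%, against 3.58% of all genes) and 2 negative (18.2%, against 1.92%). These 6 lie within 0.632 Mb on chromosome 1 (chr1:173350879-173982744). Mndal stood at 5.59, 5.42 and 4.50 CPM in wild-type, 0.158, 0.129 and 0.0779 CPM in Clrn1-/-, 4.30, 6.09 and 4.41 CPM in Clrn2-/- and 3.41, 3.39 and 2.09 CPM in the double mutant (interaction 4.65, SE 0.39). Ifi202b was listed at 0 in all wild-type libraries, at 0.0306 to 0.108 CPM in Clrn2-/-, 3.58 to 4.97 CPM in Clrn1-/- and 0.921 to 1.31 CPM in the double mutant. Members of the family thus moved in opposite directions in Clrn1-/-, and Mndal and Ifi202b had intermediate levels in the double mutant. Ifi203 had an interaction of 1.60 (SE 0.25) and Aim2 of -1.04 (SE 0.26), while the median over a separate list of 50 interferon-stimulated genes was -0.02. The zinc finger genes Zfp982 (3.61), Zfp984 (1.56) and Zfp991 (1.78), within 0.678 Mb of chromosome 4, were also low in Clrn1-/- alone.

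Other lists had medians near that of all genes, at 0.02 for 77 mitochondrial ribosome genes, -0.01 for 24 cholesterol synthesis genes and 0.09 for 23 Notch pathway genes. Of 84 oxidative phosphorylation genes 4 were called positive (4.76%, against 3.58% of all genes) and 0 negative, and 64 estimates lay above 0 (median 0.14). Among 152 deafness genes, 17 were called positive (11.2%, against 3.58% of all genes) and 4 negative (2.63%, against 1.92%), with a median of 0.08. The 17 included the targeted gene Clrn2, and Lars2, which is also in the list of non-coding RNAs.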

How the data were processed

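RNA from organs of Corti was sequenced in 12 libraries (polyA-selected, strand-specific, paired-end). The authors aligned reads with STAR to GRCm38.p6 and deposited raw counts per gene on Gencode M24, and the reverse-strand count column was used. Gene coordinates came from Gencode M21 of the same build, in which 53238 of 55348 symbols matched 1 gene, and promoters from RefSeq.

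Genes kept by filterByExpr (minimum count 10) were TMM-scaled and fitted with edgeR 4.0.16 (R 4.3.3; quasi-likelihood test, 1 coefficient per genotype). Calls needed 1.5-fold and a p of 0.05 or lower after Benjamini-Hochberg adjustment. Limma-voom (limma 3.58.1), DESeq2 1.42.0 and the other settings of the closing section were alternatives. The script was tested on simulated data.

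Members and gene lists were chosen with earlier results of these data known. Genes named are a selection, made with their values known, from the 199 genes of a rule that takes the clarins, the study's MET-related genes, the 8 largest interactions in each direction (mean of at least 1 CPM in a genotype), the 4 largest per pattern and direction, and up to 4 called members of each list and direction, and those outside this rule are marked in the text. Replicate libraries differed by more than counting noise in every genotype.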

Additional observations from a re-analysis of the deposited data

Results flagged for a closer look

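The interaction test itself marks genes whose response to 1 loss differs with the other clarin, 683 positive and 365 negative. In 52 genes Clrn1 loss was called in opposite directions with clarin-2 present and absent, and in 49 genes Clrn2 loss was called in opposite directions with clarin-1 present and absent. Those named above with at least 10 CPM in a genotype were Coch (interaction 1.28), Cebpb (1.53), C1s1 (1.46), Hbb-bs (1.49), Hba-a2 (2.85), Alas2 (1.86), Mir6236 (3.79), Lars2 (1.99), Myl1 (-3.41), Mylf-ps (-7.35) and Gm15446 (-9.54). Mylf-ps was near 0 in the double mutant and Gm15446 in wild-type, so their fitted size depends on the prior count. Each was marked because the interaction passed the edgeR test and the effects on both backgrounds were called with opposite signs. Hbb-bs, Hba-a2 and Alas2 are red blood cell genes, and Myl1 and Mylf-ps may share reads.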

How the results depend on the processing

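The counts of positive and negative interactions, of the 4 patterns and of genes called the same way on both backgrounds stayed within 1.5 times with limma-voom, DESeq2, library size alone, unstranded counts or the replicate block. Without the fold minimum there were 1775 positive and 1536 negative interactions, 763 double-only, 1171 single-only, 570 less-than-additive and 239 more-than-additive genes, and 1728 and 1154 genes called the same way on both backgrounds for Clrn1 and Clrn2 loss. The additive scale, limma on CPM divided by the gene's mean and without a fold minimum, gave 1971 positive and 1518 negative interactions, and 1 of the 1048 calls was called in the opposite direction. With every gene of at least 1 count, 20 genes were more than additive. With protein-coding genes alone, an alternative added after the data were seen, 438 interactions were positive and 260 genes single-only.

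With the replicate block, 674 positive and 360 negative interactions were called, 1001 of them shared with the 1048. Correlations of deviations between libraries of the same replicate number exceeded 0.1 in 7 of 18 pairs, so the numbers were not taken as a pairing. Leaving out 1 library at a time gave 548 to 733 positive and 331 to 422 negative interactions, 84 to 132 double-only, 372 to 460 single-only, 114 to 169 less-than-additive and 9 to 17 more-than-additive genes, and 267 to 323 and 98 to 139 genes called the same way on both backgrounds. Of the 1048 calls, 79.7 to 87.7% were called again and 0 changed sign. Among named genes, estimates changed sign for Pdzd7 with unstranded counts (0.0551), for Otog on the additive scale (0.057), and on leaving out 1 library for Ptprq (-0.1563 to 0.2368) and Espnl (-0.4925 to 0.5714), none of them called. The causes of these changes were not tested. Depth limits the estimates of genes at or near 0 in a genotype, such as Fgf8 and Ifi202b in wild-type.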
